A study of Mus musculus with 2 samples.

Results

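The adenylyl cyclases and the cyclic nucleotide phosphodiesterases are the enzymes that make and break down cyclic AMP, and the phosphodiesterases also break down cyclic GMP. Genes were taken by symbol, Adcy1 to Adcy10 and the Pde1 to Pde11 genes that end in a letter from a to h, where the annotation gives the gene a protein-coding transcript. This rule found 34 genes of the 55536 in the gene tables, 10 of them cyclases and 24 phosphodiesterase genes, of which 21 encode catalytic subunits. The tissue was left cerebral cortex, taken from B6CASTF1/J females, the offspring of a C57BL/6J and CAST/EiJ cross, at an age of 18 to 20 months. The labels give 1 group of 2 total RNA libraries, biological replicates 1 and 2, each made from 300 ng of RNA, and no treatment or control. Both name the same donor entry, so it is not clear whether the libraries came from separate animals, and the spread between them may be technical.

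Cyclic AMP is made from ATP. The membrane-bound cyclases are switched on by the stimulatory G protein of many neurotransmitter receptors and differ in how calcium, the inhibitory G proteins and the G protein beta-gamma dimer act on them, whereas the soluble cyclase answers to bicarbonate and calcium. Phosphodiesterases end the signal by hydrolysing cyclic AMP, cyclic GMP or both, and the families are told apart by that preference and by their regulation. In forebrain neurons the pathway is best known for its part in synaptic plasticity and in dopamine signalling.

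The gene tables held 32357983 expected read counts on genes in replicate 1 and 24798683 in replicate 2. The 34 genes took 0.303% of them in replicate 1 and 0.315% in replicate 2. Where a gene has 0 counts, up to 3 remain possible (0.0927 CPM for replicate 1, 0.121 CPM for replicate 2); such floors and intervals cover counting error alone. Levels are in TPM, a read count per transcript length scaled to a fixed total, and are given as mean ± SD of the libraries (n = 2) unless a replicate is named. Cortical excitatory neuron markers were at 1 TPM or more in 4 of 4 cases, with a summed level of 1732 TPM in replicate 1 and 1796 in replicate 2. In bulk tissue, fewer cells of a type and less RNA per cell cannot be told apart.

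At 1 TPM or more in both libraries stood 27 of the 34 genes, against 12844 of 22015 nuclear protein-coding genes (58.3%). Both libraries reached 10 TPM for 17 of the 34 and 50 TPM for 6. The median of the 34 mean levels was 13.0 TPM, against 3.63 TPM over all nuclear protein-coding genes. Among genes at 1 TPM or more in both libraries the medians were 23.0 TPM for the cyclase and phosphodiesterase genes and 15.8 TPM for all. None of the 34 had a count of 0 in either library. The 7 genes below 1 TPM were Adcy10, Pde3a, Pde6a, Pde6b, Pde6c, Pde6g and Pde6h. Pde2a led the list, Adcy1 followed, and Pde1b, Pde1a, Pde8b and Pde4b came next. The ranges of the libraries did not overlap between neighbours among these 6, but they did in 15 of the 33 neighbouring pairs of the whole list, among them the run from Adcy5 through Pde4d, Adcy2 and Pde4a to Pde10a. Adcy1 and the calcium-stimulated Pde1 genes, and Pde2a with the Pde4 genes, thus held most of the summed TPM of the set.

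**Figure D1:**
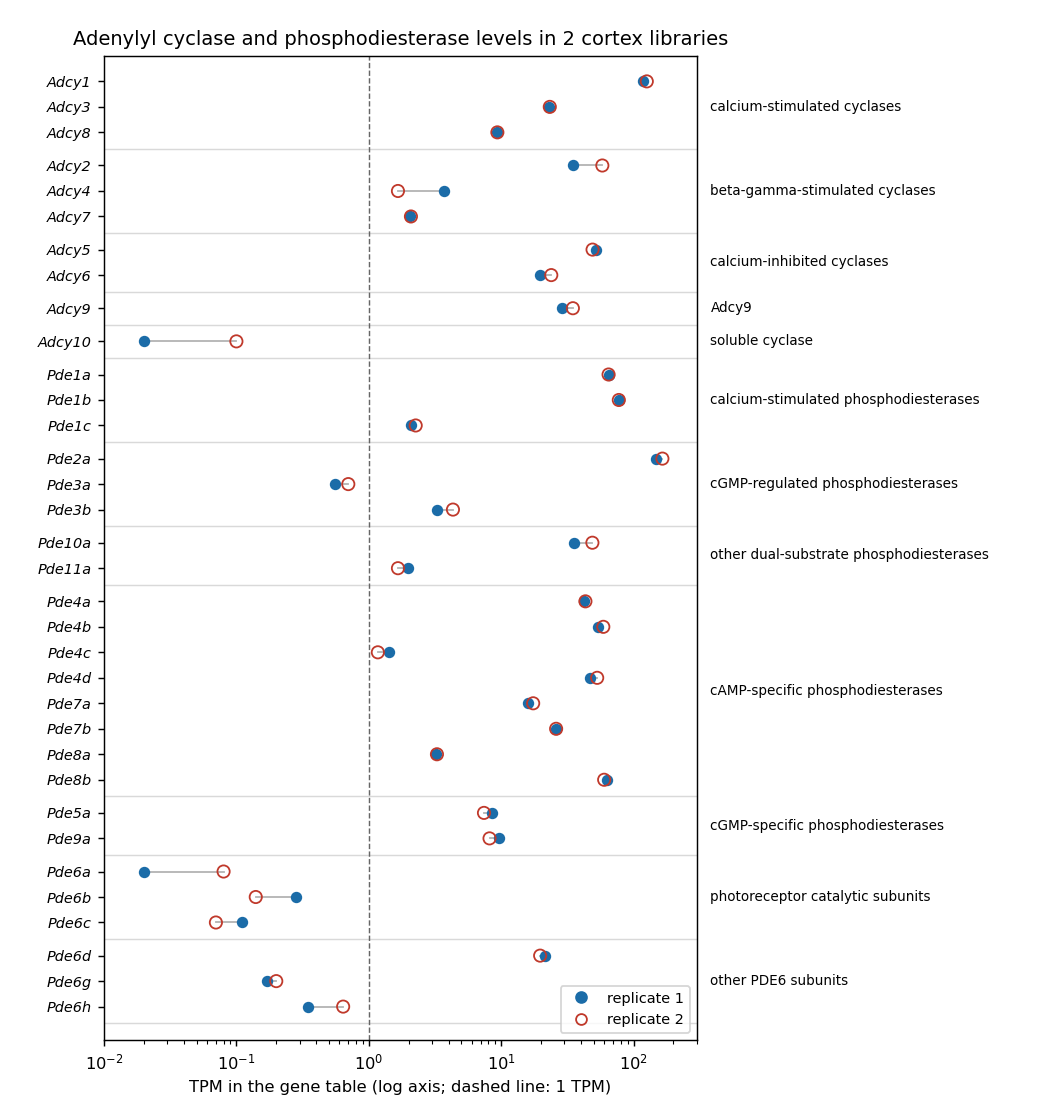
Levels of the 34 genes in the gene table (TPM, log axis) by role, with 1 point per library and a line joining the libraries; the dashed line marks 1 TPM. Adcy1 and Pde2a stand above 100 TPM in both libraries, and Adcy10, Pde3a and the Pde6 genes other than Pde6d stand below 1 TPM.

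Calcium- and calmodulin-stimulated cyclases carried the largest share of cyclase RNA. The 10 cyclases summed to 309 ± 26.0 TPM, and Adcy1, Adcy3 and Adcy8 made up 49.9 ± 2.27% of that. Adcy1 (chromosome 11, 7063489 to 7178506, plus strand in mm10) is the calcium-stimulated cyclase known from hippocampal and cortical plasticity. It had 118 and 126 TPM in replicates 1 and 2, from 32266 and 25746 counts, and alone held 39.4 ± 1.5% of the cyclase TPM. Adcy3, which marks the primary cilium of neurons and serves olfaction, had 22.8 and 23.3 TPM in replicates 1 and 2. Adcy8, another cyclase that calcium switches on in neurons, had 9.29 TPM and 9.35 TPM in replicates 1 and 2. Each was close to equal in the libraries. The Adcy1 promoter window is shown because this gene led the cyclases from essentially a lone annotated transcript. Adcy1-201, of 12259 bases, took 99.8 ± 0.07% of the gene's transcript TPM. RefSeq places the gene's start at 7063433, 56 bases before the start of Adcy1-201. In the 250 bases before it, with CG dinucleotides in capitals, 26 CG dinucleotides stand in a sequence of 71.2% G and C (GRCm38.p6, chr11:7063183-7063432, plus strand).
Adcy1 promoter: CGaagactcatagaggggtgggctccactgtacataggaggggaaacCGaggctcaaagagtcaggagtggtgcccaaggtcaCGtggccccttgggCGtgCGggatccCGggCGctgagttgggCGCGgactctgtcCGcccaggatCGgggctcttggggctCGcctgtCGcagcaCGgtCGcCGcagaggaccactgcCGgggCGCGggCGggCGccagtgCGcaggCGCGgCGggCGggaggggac

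The cyclases that the beta-gamma dimer stimulates were uneven. Adcy2, a cyclase enriched in brain, had 35.0 and 58.0 TPM in replicates 1 and 2, from 3248 and 4025 counts. It was the gene of this set that differed most between the libraries among those above 1 TPM in counts scaled to library size. Adcy7, known from immune cells and the response to alcohol, had 2.03 and 2.08 TPM in replicates 1 and 2. Adcy4 had 3.68 and 1.66 TPM in replicates 1 and 2, although its counts, 111 and 79, were close to the ratio of the depths. Its effective length was 1338 bases in replicate 1 and 2824 bases in replicate 2, because 62.2% of its TPM in replicate 1 was placed on Adcy4-205, a transcript of 256 bases that had 8.12 counts in replicate 1 and 0 in replicate 2. The alignment-free level of Adcy4, 2.19 ± 0.06 TPM, did not show this difference. Calcium-inhibited cyclases took 23.4 ± 1.69% of the cyclase TPM. Adcy5, the main cyclase of striatal projection neurons, had 52.1 and 49.0 TPM in replicates 1 and 2, and Adcy6, its widely expressed relative, had 19.5 TPM and 23.9 TPM. Adcy9, a widely expressed cyclase that forskolin stimulates only weakly, had 28.7 and 34.8 TPM in replicates 1 and 2. Adcy10, the soluble bicarbonate-sensitive cyclase best known from sperm, had 3 counts in replicate 1 and 4 in replicate 2.

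The 21 catalytic phosphodiesterase genes summed to 623 ± 28.6 TPM. Families that hydrolyse both nucleotides took 56.0 ± 1.00% of this, families specific for cyclic AMP 41.3 ± 0.58%, and Pde5a and Pde9a, which are specific for cyclic GMP, 2.70 ± 0.40%. Pde2a (chromosome 7, 101421691 to 101512827, plus strand), which breaks down both nucleotides and is stimulated by cyclic GMP, had 148 and 165 TPM in replicates 1 and 2. It held 25.1 ± 0.77% of the phosphodiesterase TPM, and its level stood at percentile 98.1 of nuclear protein-coding genes. The calcium- and calmodulin-stimulated Pde1 genes together took 23.1 ± 1.04%. Pde1b, known from striatum and other forebrain neurons, had 77.3 TPM in each library, and Pde1a, known from cortex and hippocampus, had 64.7 TPM in each. Pde1c was far lower, at 2.17 ± 0.13 TPM. The cyclic GMP-inhibited Pde3 genes, known from heart, vessel and fat, were low too, with 3.30 and 4.32 TPM in replicates 1 and 2 for Pde3b and with 0.56 TPM and 0.70 TPM for Pde3a. Pde10a, the phosphodiesterase of striatal projection neurons, had 35.4 and 48.8 TPM in replicates 1 and 2, and Pde11a, known from hippocampus, had 1.97 TPM and 1.66 TPM. Among the genes that act on both nucleotides, Pde2a, Pde1b, Pde1a and Pde10a thus stood well above Pde1c, Pde3a, Pde3b and Pde11a in both libraries.

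Cyclic AMP-specific phosphodiesterases were led by Pde8b and 3 of the 4 Pde4 genes. The Pde4 genes, the targets of the antidepressant-like drug rolipram, took 24.1 ± 0.37% of the phosphodiesterase TPM. Pde4b had 53.5 and 59.0 TPM in replicates 1 and 2, Pde4d had 46.6 TPM and 53.1 TPM, and Pde4a had 41.9 TPM and 43.2 TPM. Pde4c, the member known to be low in brain, had 1.43 and 1.17 TPM in replicates 1 and 2. The Pde8 genes, which hydrolyse cyclic AMP with high affinity, were unequal too, with 63.0 and 59.9 TPM in replicates 1 and 2 for Pde8b but 3.20 TPM and 3.27 TPM for Pde8a. Pde7b, another high-affinity enzyme, had 26.0 TPM in each library, above Pde7a with 15.9 and 17.4 TPM in replicates 1 and 2. The cyclic GMP-specific genes were of middling level. Pde9a, with the highest affinity for cyclic GMP of its kind, had 9.55 and 8.16 TPM in replicates 1 and 2. Pde5a, the target of sildenafil, had 8.46 TPM and 7.41 TPM.

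The Pde6 genes, which encode the photoreceptor enzyme, were near the floor of the gene table apart from Pde6d. The rod subunits Pde6a and Pde6b had 1 and 17 counts in replicate 1 and 3 and 5 counts in replicate 2, and the cone subunit Pde6c had 6 and 3. The inhibitory subunits Pde6g of rods and Pde6h of cones had 8 and 7 counts in replicate 1 and 3 and 8 in replicate 2. Photoreceptor markers summed to 2.69 and 3.71 TPM in replicates 1 and 2 in the gene table. There 1 of 8 reached 1 TPM, Sag, with 1.28 TPM and 1.29 TPM, while Cnga1 had 0 counts in both libraries. In the alignment-free tables Sag (3.05 and 2.68 TPM), Gnat1 (1.53 and 2.34 TPM) and Arr3 (1.16 and 1.68 TPM) passed 1 TPM. Cnga1 had 0.28 and 0.60 TPM there, and the other listed markers also stayed below 1 TPM. Pde6d, which despite its name is a widely expressed carrier of prenylated proteins, had 21.6 and 19.7 TPM in replicates 1 and 2. Pde6a, Pde6g and Pde6h gave unlike values in the tables. In the gene table Pde6a had 1 count in replicate 1 and 3 counts in replicate 2. The alignment-free tables gave it 2.33 TPM and 2.46 TPM, nearly all on Pde6a-202, the shorter of its annotated transcripts, of 2263 bases. They gave Pde6h 27.9 and 58.0 estimated counts in replicates 1 and 2 (0.88 and 1.55 TPM). Pde6g had 10.4 and 22.9 there (0.32 and 1.43 TPM). The 27 genes at 1 TPM or more had gene-table levels at a median 0.614 of their alignment-free levels, with a range of 0.501 to 1.22. For all nuclear protein-coding genes at 1 TPM or more the median was 0.618, with a central 80% from 0.473 to 0.724. Exons on opposite strands are a further limit, since the sources do not say whether counting used strand. Pde6h shares 136 exon bases with Arhgdib, which had 111 counts in replicate 1 and 67 in replicate 2, and Adcy3 shares 1380 with Cenpo, which had 81 and 102.

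Levels in the libraries were compared through the log2 ratio of replicate 2 to replicate 1 after TMM scaling of the counts. The comparison has 1 library on each side, so no test was possible. Of the 29 genes whose mean reached 10 counts, 1 was over 1.5-fold higher in replicate 2 and 1 was over 1.5-fold lower. Among all 18246 genes, 10.7% were higher by that measure and 3.62% were lower. The count is therefore not above what the libraries show in general. The median log2 ratio was -0.05 for the 29 genes and 0.00 for all. Adcy2 was the gene that was higher, at a log2 ratio of 0.69, and stayed between 0.62 and 0.73 under each of the 6 alternative scalings and filters. Among the genes that share exon bases with it, antisense Gm35161 had 65 counts in replicate 2 and 73 in replicate 1. Pde6b was the gene that was lower, at -1.14, from 5 counts in replicate 2 and 17 in replicate 1. Past 2-fold, 0 of the 29 were higher (4.46% of all genes) and 1 was lower, Pde6b (1.01% of all genes). The other 27 lay between -0.26 for Pde5a, with 441 counts in replicate 2 and 686 in replicate 1, and 0.38 for Pde3a, with 134 and 133 counts. Adcy6, with 1698 counts in replicate 2 and 1776 in replicate 1, had a log2 ratio of 0.31. Pde10a had a log2 ratio of 0.20 in counts and of 0.46 in TPM, and its effective length was 4983 bases in replicate 2 and 5824 bases in replicate 1. Striatal projection neuron markers, 7 of 7 of them at 1 TPM or more, summed to 160 TPM in replicate 2 and 178 TPM in replicate 1. Excitatory neuron markers summed to 1796 TPM in replicate 2 and 1732 TPM in replicate 1, and endothelial markers, 4 of 4 at 1 TPM or more, to 39.8 TPM and 50.2 TPM. Their part in the difference of Adcy2 was not tested.

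**Figure D2:**
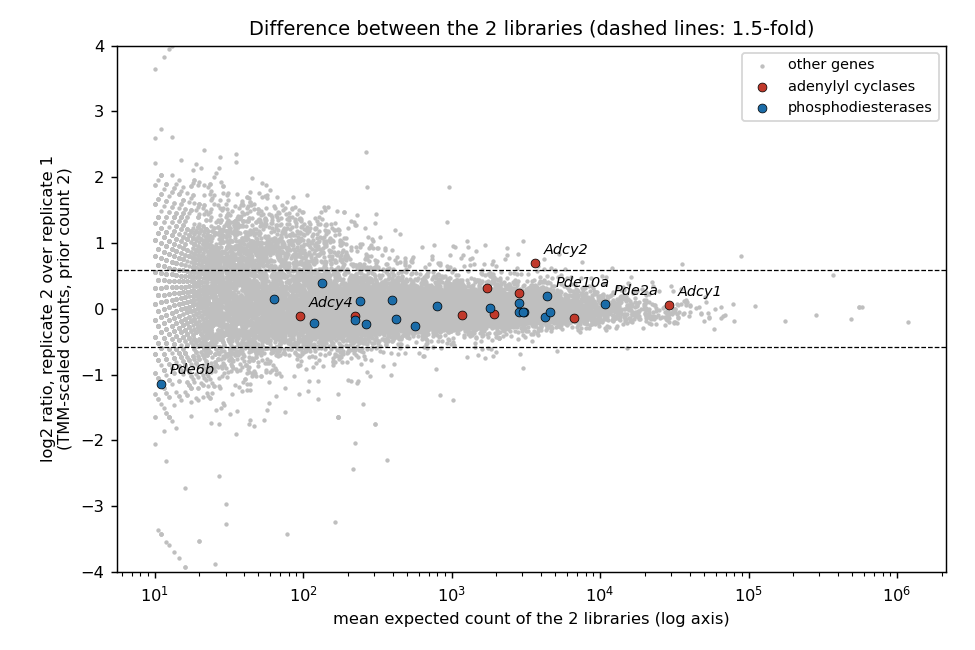
Log2 ratio of replicate 2 to replicate 1 (TMM-scaled counts, prior count 2) against the mean expected count (log axis) for all genes whose mean reached 10 counts, with the 29 tested cyclase and phosphodiesterase genes coloured; 31 other genes lie outside the plotted range of -4 to 4. Adcy2 lies above the 1.5-fold line and Pde6b, with few counts, below it, and the other 27 lie between the lines.

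Transcript tables give 243 annotated transcripts for the 34 genes, from 1 to 28 a gene, and 82 of them were at 1 TPM or more in both alignment-based tables. The transcript with the largest share of its gene's TPM, called the leading transcript, was the same in all 4 tables (alignment-based and alignment-free, both libraries) for 20 of the 27 genes at 1 TPM or more. The same held for 68.6% of 12809 nuclear protein-coding genes at that level. Leading transcripts differed for Adcy4, Adcy7, Adcy9, Pde2a, Pde4c, Pde7a and Pde9a. By the mean share of the 2 libraries, leading transcripts outside the protein-coding class numbered 3 of 27 by alignment, against 7.48% of all genes, and 3 of 27 without alignment, against 9.52%. Those by alignment were Pde2a-209, annotated as a target of nonsense-mediated decay, the retained-intron Pde7a-204 and the processed transcript Pde5a-203; those without it were Adcy4-203, Pde5a-203 and Pde9a-209. Adcy4-203 led in neither library alone, where the alignment-free leads were Adcy4-201 with 67.5% in replicate 1 and Adcy4-202 with 58.3% in replicate 2. Adcy7-201 and Adcy7-202 are an instance of forms that short reads can hardly separate. Each is 5937 bases long, and they share 5910 of these bases at the 3' side and differ in a short first exon, of 28 bases in Adcy7-201 and 27 bases in Adcy7-202. Replicate 1 placed 72.5% of the gene's TPM on Adcy7-202 and 1.96% on Adcy7-201, replicate 2 placed 0.96% and 58.2%, and the alignment-free tables gave the pair equal values within each library. Adcy9 differed between the kinds of table. Adcy9-202 held 60.8 ± 1.90% in the alignment-based tables and 20.0 ± 24.1% in the alignment-free ones, where Adcy9-203 led with 48.2 ± 3.59% and Adcy9-201, at 0% by alignment, held 31.8 ± 20.5%. For Adcy7 the alignment-free lead was Adcy7-203, with 38.9 ± 3.89%. Pde4c was led by Pde4c-207 by alignment, with 52.7 ± 13.2%, but by Pde4c-202 in the alignment-free table of replicate 1, with 67.3%. Pde9a had the leads Pde9a-203 (29.7%) and Pde9a-201 (28.9%) by alignment in replicates 1 and 2, and Pde9a-201 (24.2%) and Pde9a-209 (33.0%) without, while Pde9a-212, a retained-intron form, held 20.0 ± 0.23% by alignment. The leads of Pde7a were Pde7a-204 (26.4%) and Pde7a-202 (22.3%) by alignment and the retained-intron forms Pde7a-206 (19.3%) and Pde7a-208 (20.3%) without.

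Among genes with the same lead in all 4 tables, some were read almost wholly from 1 transcript by alignment. Adcy2-201 held 100% of its gene's TPM, Adcy5-201 96.5 ± 0.61%, Pde8a-201 93.4 ± 9.30% and Pde6d-201 90.5 ± 1.37%. Pde3b-201 held 77.8 ± 10.3%, Pde1b-201 76.7 ± 8.72%, Pde7b-201 76.0 ± 2.63%, Pde1a-206 74.8 ± 0.25% and Adcy8-201 73.7 ± 11.6%. Pde11a-201 led with 61.7 ± 2.23%, followed by Pde11a-202 with 32.5 ± 5.99%, and Pde10a-202 led with 52.2 ± 11.3%. In other genes the lead held less than 50%: 43.6 ± 3.18% for Pde4b-207, 43.5 ± 1.03% for Pde1c-205 and 41.7 ± 1.02% for Adcy3-207, with Adcy3-201 next at 24.7 ± 1.59%. Adcy6-201 held 36.3 ± 3.85% beside the retained-intron Adcy6-202 with 22.3 ± 1.20%, and Pde8b-207 held 25.3 ± 4.55% beside Pde8b-211 with 22.2 ± 1.11%. Pde5a-201 stood second in its gene with 30.8 ± 3.53%. A further 5 transcripts of these genes reached a mean of 20% in the alignment-free tables alone and were Pde1a-204 at 37.1 ± 0.17%, Adcy6-203 at 27.7 ± 3.13%, Pde11a-203 at 23.8 ± 6.53%, Adcy3-203 at 20.8 ± 1.20% and Pde1b-203 at 20.7 ± 0.22%.

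Protein-coding transcripts held a median 87.4% of the TPM over the 27 genes, against 88.2% over all nuclear protein-coding genes at 1 TPM or more. Below 80% were 11 of the 27 genes (40.7%), and 37.2% of all. The lowest share was that of Pde7a, with 35.5 ± 1.67% on protein-coding transcripts and 55.9 ± 2.40% on retained-intron transcripts. Alignment-free tables gave nearly the same coding share, 36.6 ± 2.90%. Pde5a had 47.1 ± 1.30% on protein-coding transcripts, and Pde5a-203, a processed transcript of 418 bases, held 50.4 ± 0.35% of the TPM. Pde9a, with 28 annotated transcripts, had 59.2 ± 1.57%, and Adcy6 had 66.0 ± 4.0%. Pde2a was the gene for which the tables disagreed most among these, with 46.9 ± 4.60% on protein-coding transcripts in the alignment-based tables and 81.4 ± 8.38% in the alignment-free ones. TPM is per length, so short transcripts such as Pde5a-203 weigh more in these shares than in counts.

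**Figure D3:**
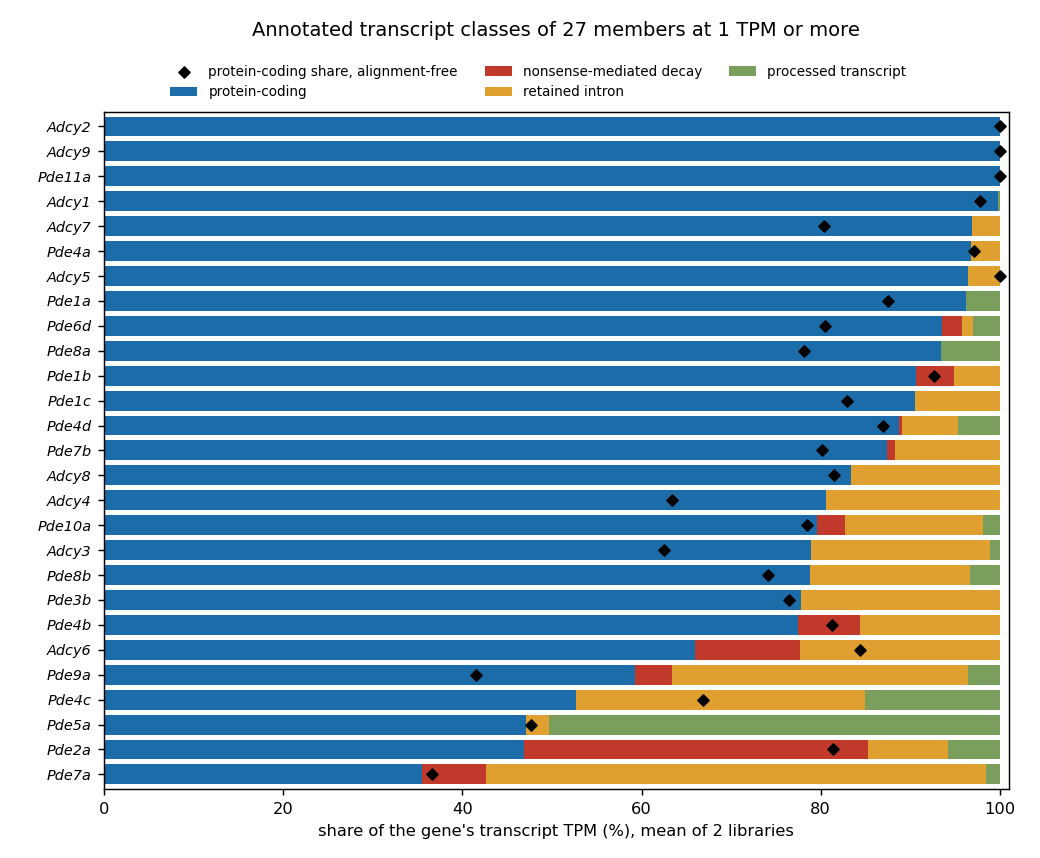
Share of each gene's transcript TPM (%, mean of 2 libraries, alignment-based tables) by annotated transcript class for the 27 genes at 1 TPM or more in both libraries, with the alignment-free protein-coding share as diamonds. Adcy2, Adcy9 and Pde11a are wholly protein-coding, Pde7a, Pde2a and Pde5a are below 50%, and the diamond lies far from the bar's blue end for Pde2a.

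Pde2a, the gene with the highest level, was divided mainly among 3 transcripts. Pde2a-209 held 36.7% in replicate 1 and 39.8% in replicate 2, against 2.67% and 10.6% in the alignment-free tables. Pde2a-204 held 22.0% and 15.4%, against 45.9% and 36.0%, and Pde2a-201 held 24.6% and 28.2%, close to its alignment-free 25.4% and 28.1%. Pde2a-209 shares a first exon with Pde2a-201 and contains an extra exon, the third of its 32, of 62 bases. The exon is shown because it separates the decay-annotated form from the others. Its length is no multiple of 3, and the annotated coding part of Pde2a-209 ends in the next exon after 210 bases, against 2817 coding bases in Pde2a-201 and 2835 in Pde2a-204 (mm10, chr7:101461480-101461541, plus strand, CG dinucleotides in capitals).
Pde2a-209 extra exon: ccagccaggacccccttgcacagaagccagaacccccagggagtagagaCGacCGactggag

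Pde2a-201 also starts an exon 12 bases earlier than Pde2a-204. These bases, in capitals between 9 bases of exon on each side, have a length that keeps the reading frame where they are translated (mm10, chr7:101503287-101503298, plus strand).
Pde2a-201 longer exon start: aggagatttCCCGACTTCCAGcttcacaga

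Pde2a-204 starts at another first exon, 28.8 kb downstream of that of Pde2a-201. The upstream first exon held 66.4 ± 2.25% of the TPM in the alignment-based tables and 47.1 ± 4.24% in the alignment-free ones, and the downstream one held 18.9 ± 4.83% and 40.9 ± 7.03%. RefSeq has a start at exactly each of these positions. The 250 bases before each are shown with CG dinucleotides in capitals, since each table gave TPM to transcripts of both first exons. These shares come from annotated transcripts, and where transcription starts was not tested. Of all windows 29.0% hold 2 CG dinucleotides or fewer, and of the windows of the 34 genes 26.5%. Further RefSeq starts of Pde2a, at 101451016, 101451252 and 101456062, have 15, 19 and 6 in their windows. Each of the 2 windows shown holds 2 CG dinucleotides, where the Adcy1 window has 26 (GRCm38.p6, plus strand, chr7:101421441-101421690 for the upstream and chr7:101450270-101450519 for the downstream start).
Pde2a upstream promoter: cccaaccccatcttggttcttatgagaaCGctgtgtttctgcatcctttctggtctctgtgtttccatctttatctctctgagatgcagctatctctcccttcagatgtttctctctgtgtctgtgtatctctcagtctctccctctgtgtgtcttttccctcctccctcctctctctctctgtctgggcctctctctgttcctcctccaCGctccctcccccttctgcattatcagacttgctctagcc
Pde2a downstream promoter: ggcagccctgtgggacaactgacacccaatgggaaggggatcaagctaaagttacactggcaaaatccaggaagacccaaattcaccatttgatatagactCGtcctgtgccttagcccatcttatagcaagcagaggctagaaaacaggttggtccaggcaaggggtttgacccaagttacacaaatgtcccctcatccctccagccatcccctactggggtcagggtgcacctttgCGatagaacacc

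A predicted gene on the same strand, Gm45837, shares 3955 exon bases with Pde2a. The gene tables gave Gm45837 49.97 counts in replicate 1 and 0 in replicate 2, whereas the alignment-free tables gave it 1450 and 1324 counts. A fractional count, which marks reads shared out between genes, was found for 11.7% of nuclear protein-coding genes. Pde2a was the sole gene of the 34 with one, at 11908.2 counts in replicate 1, while its count in replicate 2 was whole, at 9667. Its level is therefore uncertain by the reads that the counting could place on either gene.

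Several other phosphodiesterase genes were read from more than 1 first exon, as is known for the Pde4 genes, whose long and short proteins start at separate promoters. The outermost first exon of Pde4a held 55.3 ± 5.01% of the TPM and a first exon 31.0 kb inside the gene 39.4 ± 2.17%, with alignment-free shares of 53.3 ± 4.61% and 42.6 ± 2.16%. The outer start gives Pde4a-202, with 2532 coding bases, and the inner start gives Pde4a-201, with 1830. Windows before both are shown because they are unlike in composition. The outer holds 22 CG dinucleotides and is 68.8% G and C, and the inner holds 2 and is 53.6% G and C (GRCm38.p6, plus strand, chr9:21165464-21165713 and chr9:21196455-21196704, CG dinucleotides in capitals).
Pde4a outer promoter: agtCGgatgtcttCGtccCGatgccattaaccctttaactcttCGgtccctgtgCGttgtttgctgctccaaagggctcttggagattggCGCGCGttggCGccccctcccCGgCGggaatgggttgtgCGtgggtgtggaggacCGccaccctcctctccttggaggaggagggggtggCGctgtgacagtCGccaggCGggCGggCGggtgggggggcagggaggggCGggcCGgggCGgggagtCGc
Pde4a inner promoter: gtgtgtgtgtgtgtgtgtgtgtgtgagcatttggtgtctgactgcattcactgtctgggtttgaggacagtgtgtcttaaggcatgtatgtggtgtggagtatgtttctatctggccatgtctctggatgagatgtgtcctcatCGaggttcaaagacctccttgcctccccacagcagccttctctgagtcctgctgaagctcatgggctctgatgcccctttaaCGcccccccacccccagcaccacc

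Pde4b was read mainly from 3 first exons. The outermost held 22.4 ± 3.87% of the TPM, the one 167 kb inside held 51.3 ± 3.67%, and the one 502 kb inside held 21.1 ± 0.78%, against alignment-free shares of 20.1 ± 5.52%, 51.4 ± 2.57% and 20.8 ± 0.61%. Pde4d, spread over 1.5 Mb, led from a first exon 1453 kb from its 5' end, with 43.7 ± 1.78% of the TPM and an alignment-free 42.9 ± 2.11%. Its leading transcript Pde4d-207 has 1752 coding bases. A first exon of Pde4d 992 kb from the 5' end held 12.4 ± 2.06% in the alignment-based tables and was listed close to 0% in the alignment-free ones. Pde10a led from a first exon 276 kb inside the gene, with 55.4 ± 9.32% of the TPM and an alignment-free 44.4 ± 7.03%, and a first exon 368 kb inside held 2.34 ± 1.32% by alignment and 12.7 ± 2.14% without. Pde8b was read mainly from its outermost first exon (36.8 ± 2.96%) and one 27.3 kb inside (35.5 ± 3.16%), with alignment-free shares of 33.0 ± 3.38% and 34.4 ± 0.90%. A first exon of Pde8b 216 kb inside held 22.2 ± 1.11% by alignment and 16.1 ± 0.03% without. The leading first exons of Pde1a lie only 0.5 kb apart, and here the tables differed. The inner of them held 74.8 ± 0.25% and the outer 14.8 ± 0.91% in the alignment-based tables. In the alignment-free ones they held 53.3 ± 0.13% and 37.5 ± 0.23%.

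**Figure D4:**
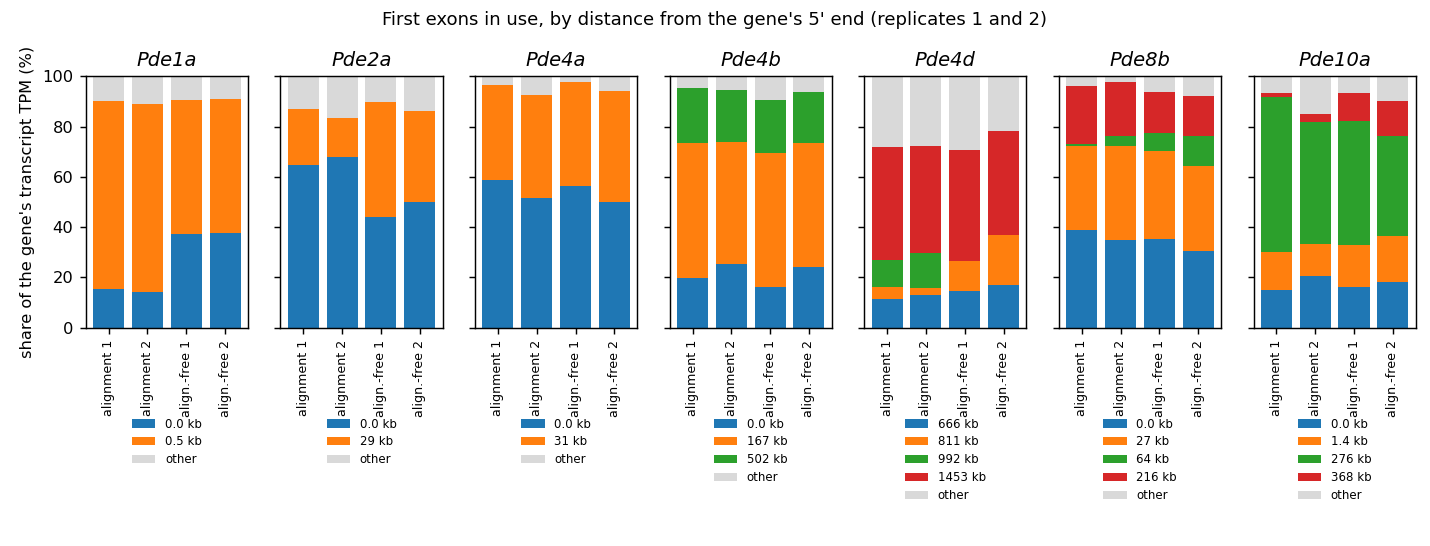
Share of transcript TPM (%) by first exon for 7 phosphodiesterase genes in the alignment-based and alignment-free tables of replicates 1 and 2, with each first exon named by its distance from the gene's 5' end in kb and the rest in grey. Bars are alike across the 4 tables for Pde4a and Pde4b, and the split between the first exons of Pde1a and of Pde2a changes with the kind of table.

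RefSeq promoter windows were found for 25 of the 34 genes, 49 windows in all, and 42 of these have their start within 100 bases of an annotated 5' end. The cyclic AMP response element TGACGTCA, searched on both strands in the 250 bases before the start, was in 0 of the 49 windows and in 1.55% of 32851 windows of all genes. Its shorter core TGACG, which the full element contains, was on either strand in 7 of the 49 windows (14.3%) and in 17.8% of all. These were windows of 7 genes, and the 5 windows printed above hold none. The median window held 6 CG dinucleotides, as did the median of all windows. With 22 or more, the number in the outer Pde4a window, were 11 of the 49 windows (22.4%), against 14.8% of all.

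The genes listed on either side of the cyclases in the pathway were all at 1 TPM or more in both libraries. The photoreceptor G protein subunits Gnat1 (0.505 ± 0.276 TPM in the gene table) and Gnat2 (0.13 ± 0.06 TPM) were counted as photoreceptor markers. They are not in these lists. All 7 listed G protein alpha subunits reached 1 TPM in each library, and the highest were Gnas, the stimulatory subunit, at 757 ± 26.2 TPM and Gnao1, an inhibitory-class subunit abundant in neurons, at 286 ± 6.89 TPM. The inhibitory subunit Gnai2 followed with 89.7 ± 7.08 TPM. Protein kinase A and its inhibitors were at that level in 9 of 9 cases, led by the regulatory subunits Prkar1b at 332 ± 16.0 TPM and Prkar1a at 259 ± 6.45 TPM and by the catalytic subunit Prkacb at 184 ± 13.7 TPM. Kinase-anchoring proteins were so in 8 of 8 cases, with Akap11 at 73.1 ± 1.39 TPM and Akap6 at 70.9 ± 1.03 TPM. Other effectors of cyclic AMP were so in 8 of 8, with the exchange factor Rapgef4 at 195 ± 2.34 TPM and the CREB coactivator Crtc1 at 65.6 ± 1.18 TPM. For cyclic GMP 8 of 8 were so, led by Gucy1b1, a subunit of the nitric oxide receptor, at 70.6 ± 4.99 TPM. The 3 calmodulin genes, whose protein activates Adcy1 and the Pde1 enzymes, summed to 2693 and 2588 TPM in replicates 1 and 2. None of these 7 lists, with PACAP and its receptor as the last, held a gene below 1 TPM. The lists were picked by hand with earlier results known, whereas the 34 genes were taken by symbol. Their counts at 1 TPM are therefore not comparable. Of all nuclear protein-coding genes, 58.3% were at 1 TPM or more in both libraries.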

How the data were processed

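Total RNA libraries with spike-in RNAs were measured in 2 samples of 1 group. The values refer to mm10 and GENCODE M21, per the labels and the match of all 55536 deposited gene identifiers to that annotation. Which aligner and quantifiers were run is not given in the sources used here. Expected counts and TPM fill the alignment-based gene and transcript tables, per the file headers, and the alignment-free transcript tables hold estimated counts and TPM. The deposited expected counts are not normalized. The authors' TPM are scaled by effective length and to a common sum per library. Deposited percent shares and FPKM were not used; transcript shares were computed from TPM, and alignment-free values were summed to genes. Molecular identifiers are not in the tables.

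The members and lists were chosen with earlier results of these data known. Every member is named; for the 27 at 1 TPM or more, a transcript is named where it leads in a table or holds a mean of 20% or more in either kind of table. With 1 group there was no test and no p-value. For the library ratio, expected counts were rounded, genes with a mean of 10 counts were kept, and edgeR 4.0.16 in R 4.3.3 gave TMM-scaled log2 ratios with a prior count of 2. DESeq2 1.42.0 size factors were an alternative. First exons group transcripts whose first exons overlap on the annotation. Sequences are from RefSeq promoter tables (GRCm38.p6) and GENCODE M21 transcripts. No protein table was used here, and no reads were examined.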

Additional observations from a re-analysis of the deposited data

How the results depend on the processing

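The count of genes at 1 TPM ranged from 24 (2 TPM) to 28 (0.5 TPM, alignment-free TPM, or TPM rescaled over nuclear protein-coding genes). Genes with the same leading transcript numbered 20 or 21 of 27 (21 among protein-coding transcripts alone) and 24 of all 34. With 1 group these counts have no direction. The summed levels moved with the scale. The cyclases summed to 473 TPM in the alignment-free tables and 701 TPM when rescaled over nuclear protein-coding genes, and the catalytic phosphodiesterases to 989 TPM and 1413 TPM. Leaving out 1 library gave 291 and 328 TPM for the cyclases and 603 and 644 TPM for the phosphodiesterases, 27 genes at 1 TPM each time, and 20 and 21 genes with the same leading transcript in both kinds of table, the last an alternative added after seeing the data. Genes past 1.5-fold between the libraries numbered 2, but 4 with no count filter (2 each way, against 18.5% higher and 7.84% lower of all genes), 4 in alignment-free estimated counts (3 higher, with Pde6g and Pde6h, and 1 lower, against 16.7% and 2.96%), 3 as a ratio of TPM (1 higher and 2 lower, against 2193 and 611 of 18246 genes) and 1 at 2-fold. Scaling by DESeq2 size factors or by library size alone shifts the ratio of every gene by nearly the same small amount. For Adcy1 the log2 ratio was 0.0536 in the main setting and 0.0533 and 0.0584 in these. Such settings could hardly change the side of a gene. Of 116 alternative log2 ratios, these included, 115 stayed on the same side of 1.5-fold. The exception was Adcy4, at -1.10 as a ratio of TPM against -0.11 in scaled counts. The causes were not tested, except that the rescaled TPM and the 2-fold limit differ by construction. Levels of single genes moved by over 1 SD for 32 of 34 in alignment-free TPM and for 14 of 34 in posterior mean TPM. This SD is that of 2 libraries and was only 0.007 TPM for Pde1a and Pde1b. Alignment-free levels were higher in general. The median ratio of gene-table to alignment-free level was 0.618 for all nuclear protein-coding genes at 1 TPM or more and 0.614 for the 27 genes. No paired analysis was possible because there is 1 group. At this depth, genes with fewer than about 10 counts (Adcy10, Pde6a, Pde6c, Pde6g, Pde6h) cannot be ranked.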

Other observations

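Some genes share a name with these enzymes but lie outside the rule. Pde4dip, which encodes myomegalin, a centrosomal and Golgi protein that binds phosphodiesterase 4D, had 88.6 and 104 TPM in replicates 1 and 2, above each Pde4 gene. Pde12, a mitochondrial enzyme that trims poly(A) tails, had 3.88 TPM and 3.93 TPM. The neuropeptide precursor Adcyap1 had 17.0 and 13.7 TPM in replicates 1 and 2, and its receptor Adcyap1r1, which couples to the cyclases, had 51.6 TPM and 53.5 TPM.

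Markers of other cells that cortex tissue can hold differed in level. Choroid plexus markers summed to 9.86 TPM in replicate 1 and 5.86 TPM in replicate 2, with 3 of 4 at 1 TPM or more. Smooth muscle and pericyte markers summed to 33.6 TPM and 32.8 TPM, inhibitory neuron markers to 515 TPM and 446 TPM, astrocyte markers to 228 TPM and 240 TPM, oligodendrocyte markers to 261 TPM and 229 TPM, and microglia markers to 65.8 TPM and 59.8 TPM in replicates 1 and 2. All genes of these last 5 lists were at 1 TPM or more in both libraries.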
